A study of Mus musculus with 2 samples.

Results

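IgD-negative B cells of the irradiated mouse intestine were taken from 2 single-cell RNA libraries as cells with B cell transcripts and no transcript of Ighd, the gene of the IgD heavy chain. They were chosen by their measured counts of unique molecular identifiers (UMIs, single captured RNA molecules): at least 2000 UMIs, 200 genes and at most 20% mitochondrial UMIs; at least 4 UMIs summed over Ebf1, Pax5, Ms4a1 and Bank1; no UMI of Ighd, Cd3d, Cd3e or Cd3g; at most 1 UMI of Lyz2; and at most 4 over the plasma cell genes Mzb1, Derl3 and Txndc5. Of 19752 cell barcodes, 2059 met the rule, 648 of 10958 in the WT library and 1411 of 8794 in the KO library. The same rule with 1 or more Ighd UMIs gave 1566 IgD-positive cells, 436 in WT and 1130 in KO. Immune cells had been released from intestine by digestion, and live ones were sorted by FACS on whether they carried GFP or tdTomato fluorescence. One library came from WT mice and one from DPF2 KO mice, and both groups had received 10 Gy of X-rays. No unirradiated group was analysed here, and strain, age, sex, number of mice, time after irradiation, the deleted part of Dpf2 and what the 2 reporters mark were not stated in the labels. Each genotype is 1 library, so cells are not replicates, no test was made between genotypes, and every interval printed here covers counting error only.

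A naive B cell makes IgM and IgD from 1 long transcript by alternative splicing, and carries both on its surface. After activation, and in germinal centre and most memory B cells, IgD is lost, while class switching replaces the IgM constant region by that of IgG, IgE or IgA. The gut holds germinal centres in Peyer's patches and isolated follicles, and its plasma cells release mostly IgA. DPF2 is a subunit of the canonical BAF chromatin remodelling complex.

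The libraries held 64786549 (WT) and 49590755 (KO) UMIs, and 9665 and 7564 barcodes passed the depth limits. They shared 24 barcodes, and none was an IgD-negative member in both. Dpf2 (chromosome 19, 5896516 to 5913010, GRCm38) was at 33.0 UMIs per 1000000 UMIs of the cells summed (CPM) over all cells of the WT library and 19.2 in KO, a ratio of 0.582 (95% interval 0.539 to 0.629). In the IgD-negative cells that passed a check of cell type it was 47.5 in WT and 32.0 in KO, a ratio of 0.673 (0.492 to 0.924), so Dpf2 transcripts were lower in the library labelled KO but present. Cells with Xist and cells with Y-linked transcripts occurred in both libraries, among the IgD-negative members as well (130 with Xist only and 301 with Y-linked transcripts only in WT, 339 and 438 in KO).

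The rule also took in cells with transcripts of another cell type, most of all in the WT library. Ebf1, a transcription factor of the B lineage, is also a gene of fibroblasts, and it gave 80.2% of the marker UMIs of the members in WT and 83.1% in KO. Of the WT members, 133 of 648 (20.5%, exact interval 17.5 to 23.8) carried over 3 UMIs of an 18-gene stromal list led by Dcn and Col3a1, against 4 of 436 IgD-positive cells (0.917%). In KO it was 39 of 1411 (2.76%, 1.97 to 3.76) against 2 of 1130 (0.177%). These 133 WT cells held Col3a1 at 3019 CPM and Dcn at 4909.7, while Cd79a, a subunit of the B cell receptor, was found in 10.5% of them and Pax5 in 8.27%. Endothelial genes were found beside the fibroblast genes. Cdh5 was in 38.3% of the 133 WT cells and 51.3% of the 39 KO cells, and Dcn in 51.9% and 38.5%. The rule's limit of 4 marker UMIs lay within this group: 77.3% of the 22 WT members with exactly 4 marker UMIs had over 3 stromal UMIs, and so did 77.4% of the 31 cells with 3, just outside. In KO these shares were 26.7% of 30 members and 20.5% of 44.

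The rest of the description uses members that also passed a check: at least 1 UMI of Cd79a or Cd79b, at most 3 UMIs of each of 6 lists for other cell types (stromal, endothelial and glial, epithelial, T and NK, monocyte and macrophage, plasmacytoid dendritic), and no doublet call. It kept 404 WT and 824 KO IgD-negative cells, of a median of 3452 and 3354 UMIs, and 347 and 825 IgD-positive cells, of 3737 and 3964. In the kept IgD-negative cells Ebf1 stood at 6841 CPM in WT and 6800.0 in KO, Cd79a at 607 and 429, and Pax5, the factor that maintains B cell identity, at 444 and 418. Ebf1 and Pax5 are genes of the rule and Cd79a of the check, so these levels follow in part from how the cells were chosen. Bach2, a repressor that holds B cells back from becoming plasma cells, was found in 98.5% and 98.2% of them, and the class II chaperone Cd74 in all of the WT cells and 99.9% of the KO cells. The stromal list summed to 76.2 CPM in WT and 21.5 in KO, close to the 79.1 and 16.1 of the IgD-positive cells, and Pdgfra was in 0.495% of the WT cells and in none of the KO cells (0 of 824). The check capped this list, Pdgfra included, at 3 UMIs per cell in both groups. These low values therefore follow from the check and are no separate evidence of cell type. The check was strict: 68 WT and 381 KO members failed it only through a lack of Cd79a and Cd79b UMIs, and these held Bach2 in 98.5% and 98.7% and Ighm in 79.4% and 60.1%. A looser check without that condition and without Pecam1, which B cells also express, kept 487 and 1270 cells.

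**Figure D1:**
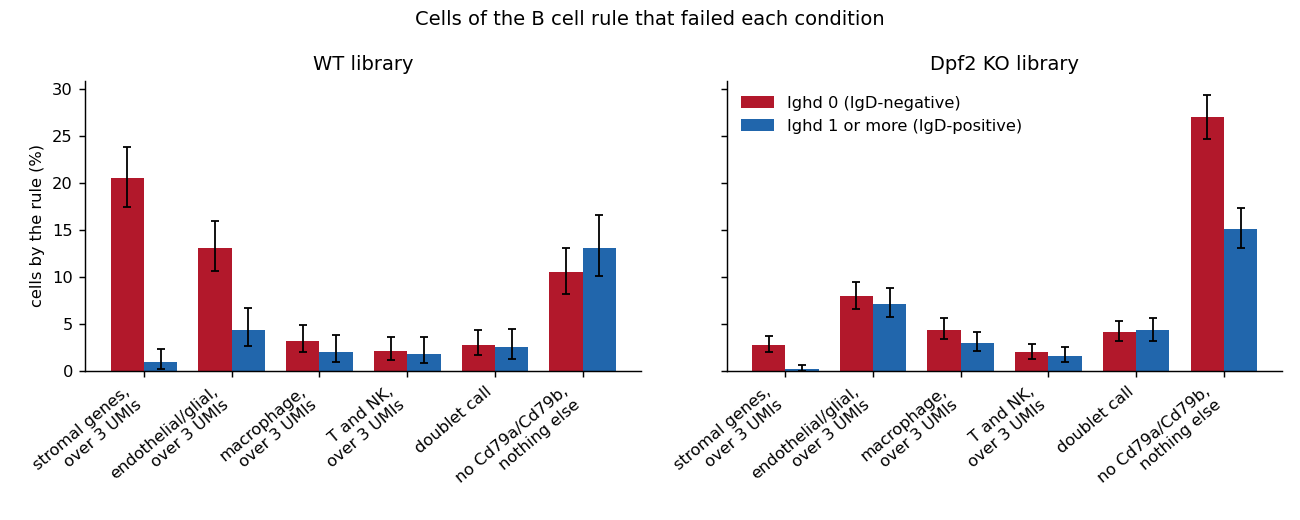
Bars give the percent of cells meeting the B cell rule that failed each condition of the check, for cells with 0 Ighd UMIs (red) and with 1 or more (blue), with exact 95% intervals of counting error. Stromal transcripts marked 20.5% of the WT IgD-negative members against 0.917% of the WT IgD-positive cells.

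The number of cells without an Ighd UMI depended on the depth of the cells. Of all cells meeting the B cell rule, 59.8% (56.8 to 62.7) had no Ighd UMI in WT and 55.5% (53.6 to 57.5) in KO, and of those kept after the check 53.8% (50.2 to 57.4) and 824 of 1649 (47.5% to 52.4%). The IgD-positive cells held Ighd (chromosome 12, 113406604 to 113416324, GRCm38) at 394 and 368 CPM, and 209 of 347 in WT and 463 of 825 in KO had exactly 1 UMI. A Poisson rate fitted to the IgD-positive cells alone, 254 and 251 CPM, gives 224 cells at 0 in WT and 499 in KO from sampling, which is 55.4% and 60.5% of the IgD-negative cells kept. The fit assumes 1 rate for all IgD-positive cells, and a spread of rates among them would raise the number at 0. The share at 0 was lower in deeper cells: in KO it was 64.6% of 444 cells of 2000 to 3000 UMIs, 43.3% of 432 cells of 4000 to 6000, and 15.2% (5.11 to 31.9) of 33 cells above 10000. In WT it was 64.0% of 203 cells, 48.6% of 218 and 4 of 8 in the deepest bin. In each of the 5 depth bins of both libraries the observed share lay above the share from sampling, which ran from 51.3% down to 6.30% in WT and from 52.3% down to 4.55% in KO. T cells, which do not make Ighd, had a UMI of it in 0.980% (WT, median 4608 UMIs) and 2.57% (KO, median 4966), and the source of these UMIs was not tested. At this depth a single cell with 0 Ighd UMIs could not be told from one in which the transcript was missed.

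**Figure D2:**
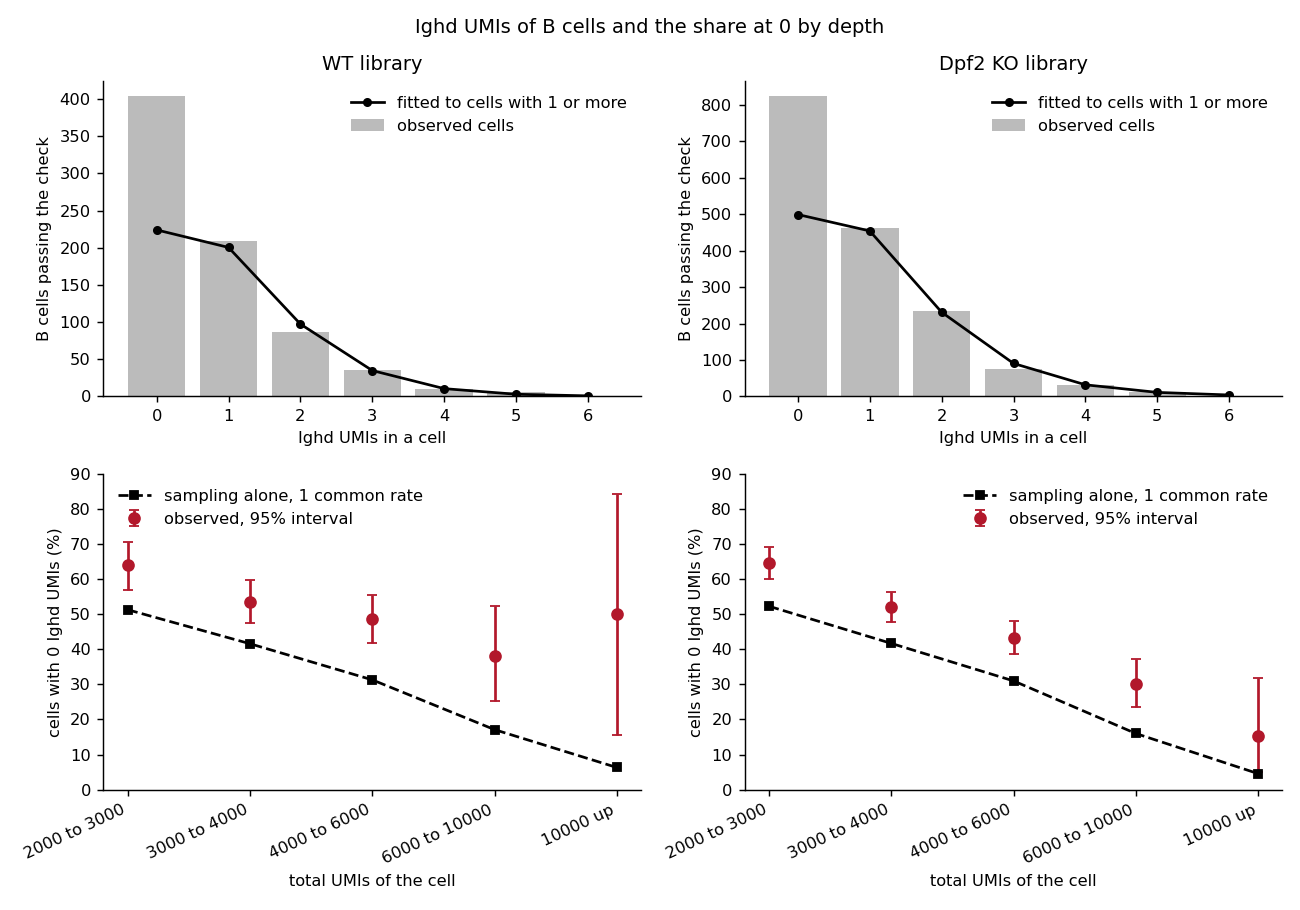
The upper panels show the number of B cells passing the check by Ighd UMIs per cell (grey bars) and the Poisson fit to cells with 1 or more (black line), and the lower panels the percent of cells with 0 Ighd UMIs by total UMIs per cell (red, exact 95% intervals) beside the percent from sampling (black squares). Observed cells at 0 number 404 in WT and 824 in KO, against fitted values of 224 and 499.

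Across genes, IgD-negative cells differed little from IgD-positive cells of the same library and depth. IgD-negative cells were paired 1 to 1 with IgD-positive cells of total UMIs within 10%. A pair was found for 326 of the 404 kept IgD-negative cells in WT and 640 of 824 in KO. Those paired were deeper, at a median of 3721 and 3679.5 UMIs against 3452 and 3354 for all kept. UMIs were summed over the paired cells, and levels were compared as log2 ratios after adding 10 CPM. This is the contrast by which the cells were chosen, so its values are a description and none is tested. Of 5717 genes above the filter (50 UMIs over both groups and a UMI in 5% of the cells of a group; Ighd left out), 0 (0%) were at least 2-fold higher in IgD-negative cells in both libraries and 0 (0%) at least 2-fold lower. A single gene, Card6, passed 2-fold in WT alone, and none in KO alone. The middle 90% of log2 ratios ran from -0.39 to 0.37 in WT and from -0.30 to 0.27 in KO. The direction was the same in both libraries for 54.5% of genes, and the log2 ratios of the libraries had a Pearson r of 0.12 over these genes, which share libraries and depth and are not independent replicates.

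Ighm was lower in IgD-negative cells of both libraries. Ighm, whose transcript is the one from which IgD is spliced, was at 788 CPM in IgD-negative against 956 in matched IgD-positive cells of WT, a ratio of 0.824 (0.759 to 0.895), and at 461 against 642 in KO, a ratio of 0.718 (0.666 to 0.774). Among genes higher in IgD-negative cells of both libraries, Basp1, which is found in germinal centre B cells, was at 99.6 against 46.4 in WT (2.14-fold, 1.57 to 2.95) and 38.7 against 26.5 in KO (1.46-fold, 1.06 to 2.01). Against all IgD-positive cells in place of matched ones the log2 ratio of Basp1 was 0.68 in WT and -0.06 in KO, so its direction in KO depended on which IgD-positive cells were used. Piezo1, a mechanosensitive ion channel, was at 55.7 against 33.5 in WT (1.66-fold, 1.13 to 2.47) and 80.1 against 52.3 in KO (1.53-fold, 1.23 to 1.92). Ahnak, a large scaffold protein, was at 89.9 against 57.1 and 91.9 against 62.4, and Ahcyl2 at 454 against 338 and 898 against 683. The others among the 12 highest were Airn, Dstyk, Mrm2, Nlrc4, Bckdha, Flii, Slc43a2 and Evi5, at ratios from 1.41 to 1.91. Airn, a non-coding RNA antisense to Igf2r, was the highest at 1.81 and 1.91, but with every cell of the rule its log2 ratio was 2.37 in WT, stromal cells included, and with the looser check it was 0.19. Under at least 1 alternative 7 of the 12 turned direction in a library: Airn in WT (-0.52, cells with Xist), Basp1 and Ahnak (-0.05) in KO, Evi5 (-0.25), Dstyk (-0.10) and Bckdha (-0.17) in WT, and Nlrc4 in both (-0.15 in WT, -0.32 in KO). Ahcyl2, Flii, Mrm2, Piezo1 and Slc43a2 did not.

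The 12 lowest genes lay between ratios of 0.389 and 0.746. Elp4, a subunit of the Elongator complex, was at 43.1 against 73.1 in WT (0.590, 0.418 to 0.825) and 43.3 against 67.5 in KO (0.641, 0.501 to 0.818). Slc26a11, an anion transporter, was at 0.510 times (0.329 to 0.778) its IgD-positive level in WT and 0.735 times (0.575 to 0.938) in KO, and Elk4, an ETS factor that acts with SRF, at 99.6 against 140.1 and 108 against 144. Ppargc1a, a coactivator of mitochondrial biogenesis, was the furthest in KO (0.389, 0.263 to 0.566) with 0.720 in WT, where its interval (0.479 to 1.08) held 1. Iqsec2, Mbtps2, Spns1, H2-T22, Dzip3, Shmt1, Galk2 and Angel2 made up the rest. These genes rest on few UMIs, and with IgD-positive cells of 3 or more Ighd UMIs (52 and 115 pairs) the direction turned in WT for Elp4 (log2 ratio 1.24), H2-T22 (0.62) and Spns1 (0.47) and in KO for Iqsec2 (0.17). Ppargc1a turned in WT in cells of 4000 or more UMIs (0.55) and Galk2 in WT cells with Xist (0.09). In all, 6 of the 12 lowest genes lost their direction in a library under at least 1 alternative.

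Gene lists of B cell states showed the same small differences, beside a median log2 ratio of -0.01 over all genes in both libraries, of which 24.9% (1422 of 5717) were higher in both and 29.6% (1692) lower in both. These all-gene shares are the background to each count that follows. Of 18 activation genes above the filter (of 23 listed), 9 were higher in IgD-negative cells of both libraries and 3 lower in both, with medians of 0.09 in WT and 0.05 in KO. Cd86, a costimulatory ligand, had log2 ratios of 0.21 and 0.10, and the activation receptor Cd83 -0.02 and -0.05. Nr4a1, an early response gene of the B cell receptor, had 0.01 and 0.10. Of 6 germinal centre genes (of 16 listed), 2 were higher in both libraries, Basp1 among them, and 2 lower in both. Their medians were 0.08 in WT and -0.12 in KO, and Bcl6 had log2 ratios of -0.11 and -0.19. Of 9 memory genes (of 14 listed), 3 were higher in both libraries and 3 lower in both, near the all-gene shares. Cd44, an adhesion receptor raised on antigen-experienced lymphocytes, was at 308 against 191 in WT (1.61-fold, 1.37 to 1.89) and 222 against 186 in KO (1.19-fold, 1.06 to 1.35). Ski, a repressor of TGF-beta signalling, had log2 ratios of 0.08 and 0.10. Vim, an intermediate filament gene, was at 76.5 against 51.8 and 59.8 against 51.1, while Cd38 had log2 ratios of -0.23 and -0.13.

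Of 13 naive follicular genes, 8 were lower in IgD-negative cells of both libraries and 0 higher in both, with medians of -0.02 and -0.12. The most abundant of them, Foxp1 and Bach2, had log2 ratios within 0.07 of 0 in both libraries. Of 10 class II antigen presentation genes, 8 were lower in both and 1 higher, with medians of -0.12 and -0.03. The B cell identity list had 6 of 14 lower in both and 0 higher (medians -0.09 and -0.11), and the B cell receptor signalling list 4 of 18 higher and 5 lower. Of 12 NF-kB genes, 6 were higher in both and 3 lower (medians 0.03 and 0.03), with Rel at 0.01 and 0.10 and Tnfaip3, an inhibitor of NF-kB, at 0.45 and 0.16. With the 10 CPM added, no gene of these lists passed 2-fold in either library.

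**Figure D3:**
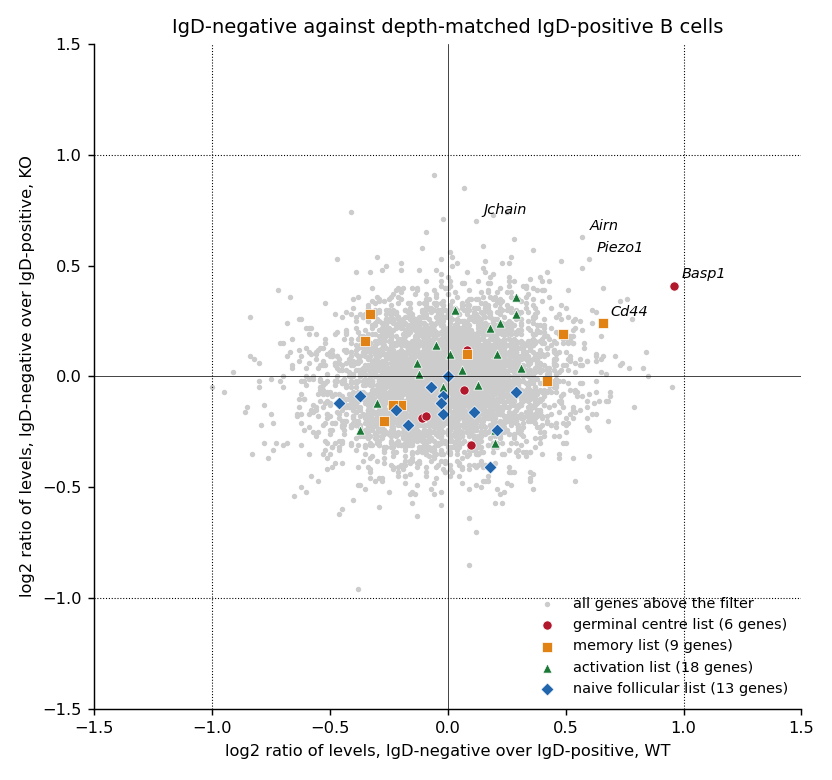
Each point is a gene above the filter, placed by its log2 ratio of IgD-negative over depth-matched IgD-positive cells in the WT library (horizontal) and the KO library (vertical); colours mark 4 gene lists and dotted lines 2-fold. No gene lies beyond 2-fold in both libraries. Basp1 lies at 0.96 and 0.41, and Cd44 at 0.66 and 0.24.

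Mki67 and Fas were found in few IgD-negative cells of either library. Here and in the next paragraph, shares are of all kept IgD-negative cells (404 and 824) and of the matched IgD-positive cells (326 and 640). Before thinning the sets differ in depth, at medians of 3452 and 3354 UMIs against 3670 and 3672. Mki67, a gene of dividing cells, was in 6 WT IgD-negative cells thinned to 2000 UMIs (1.49%, 0.547 to 3.20) against 1 IgD-positive cell (0.307%), and in KO in 3 (0.364%) against 3 (0.469%), while in T cells it was in 4.13% and 1.71%. Before thinning it was in 3.22% against 0.920% in WT and 0.728% against 1.25% in KO. The death receptor Fas, which is raised on germinal centre B cells, was after thinning in 9 WT IgD-negative cells (2.23%, 1.02 to 4.19) against 2 (0.613%), and in KO in 14 (1.70%) against 14 (2.19%), with 7.69% and 7.14% in T cells, which also express it. Before thinning it was in 4.70% against 1.84% in WT and 3.76% against 3.75% in KO.

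By a broad gate on the germinal centre list, which some T cells also passed, the shares of IgD-negative and IgD-positive cells were close. With every cell thinned to 2000 UMIs, 16.6% (13.1 to 20.6) of WT IgD-negative cells had at least 2 UMIs of the list without Fas, Basp1, Lmo2, Plxnb2 and Efnb1, and so did 16.6% of IgD-positive cells and 8.10% of T cells. In KO the shares were 12.9%, 14.2% and 8.29%. Before thinning they were 31.9%, 36.5% and 28.6% in WT and 28.5%, 31.7% and 33.7% in KO. With so many T cells passing, the gate is a weak measure of germinal centre cells. Bcl6, the master repressor of the germinal centre, was in 28.0% of thinned WT IgD-negative cells, 27.3% of IgD-positive cells and 17.4% of T cells (41.1%, 43.3% and 34.3% before thinning). In KO it was in 20.9%, 23.0% and 19.7% (32.9%, 35.3% and 36.6% before thinning). Of the surface genes of memory B cells, Cd44 was after thinning in 33.2% of WT and 28.5% of KO IgD-negative cells against 25.2% and 29.7% of IgD-positive cells, while Cd80, Nt5e and Pdcd1lg2 were in under 10% of either. Cd80 was in 1.49% and 3.16% of IgD-negative cells (WT and KO), 1.84% and 2.34% of IgD-positive and 3.46% and 3.43% of T cells, a share at or below that of T cells. Nt5e was in 4.70% and 2.79% against 4.91% and 2.34%, with 23.2% and 23.4% in T cells, and Pdcd1lg2 in 7.67% and 6.31% against 7.67% and 6.09%, with 5.11% and 5.71% in T cells. Cd69, an early activation marker, was in 47.8% and 42.1% of IgD-negative against 51.2% and 44.5% of IgD-positive cells, and T cells, which also make it, had 53.9% and 54.3%. Cd83 was in 50.2% and 52.8% against 55.2% and 48.1%, with 5.31% and 12% in T cells. The low-affinity IgE receptor Fcer2a of naive follicular cells was in 16.1% and 10.6% against 12.6% and 12%, and in none of the T cells after thinning.

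Of the heavy chain constant genes, Ighm stood far above its level in T cells, and most switched genes did not. Ighm was before thinning in 82.4% (78.4 to 86.0) of kept IgD-negative cells in WT and 71.6% (68.4 to 74.7) in KO, against 11.9% and 12.9% of T cells. After thinning it was in 67.3% and 56.2%, against 4.85% and 6.29%. Igha, the constant gene of IgA, was in every IgD-negative, IgD-positive and T cell of both libraries, at 4071, 4024 and 4891 CPM in WT and 3189, 2616 and 2772 in KO, so that a UMI of this gene did not mark a switched cell. One KO IgD-negative cell held 1004 Igha UMIs and the next 261, 233 and 142, against a median of 9 in this class. The 3 highest held 15.3% of the Igha UMIs behind its 3189 CPM. The highest count was 61 in KO T cells and 71 in KO IgD-positive cells. In WT it was 118 in IgD-negative, 124 in IgD-positive and 2757 in T cells. Ighg1 was at 12.4 (7.45 to 19.3) in WT IgD-negative cells against 4.20 (1.54 to 9.14) in IgD-positive and 5.15 in T cells, and in KO at 11.1, 8.83 and 14.8. Ighg2c lay between 6 and 13.1 in all 6 groups.

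Ighg2b stood apart in KO through 3 cells. Its level was 620.4 CPM in KO IgD-negative cells, 34.8 in KO IgD-positive cells, 34.7 in KO T cells and 15.6 in WT IgD-negative cells. The 3 cells held 1072, 374 and 350 Ighg2b UMIs, 94.5% of the total, and without them the level was 34.4 (28.2 to 41.7). They also held 112 to 243 UMIs of Jchain, which links IgA and IgM, 656 to 1509 of the light chain Igkc, 5 to 10 of Xbp1 and 1 or 2 of the plasma cell receptor Sdc1, with at most 1 UMI of Ms4a1 and none of Pax5. These are transcripts of antibody-secreting cells, and the cells met the rule with 10 and 6 Ebf1 UMIs, and the one of 1072 Ighg2b UMIs with 2 of Ebf1, 1 of Ms4a1 and 2 of Bank1. They passed the limit of 4 on Mzb1, Derl3 and Txndc5. Leaving them out took the log2 ratio of Jchain between IgD-negative and matched IgD-positive cells of KO from 0.70 to 0.34 and that of Igkc from 0.91 to 0.44.

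**Figure D4:**
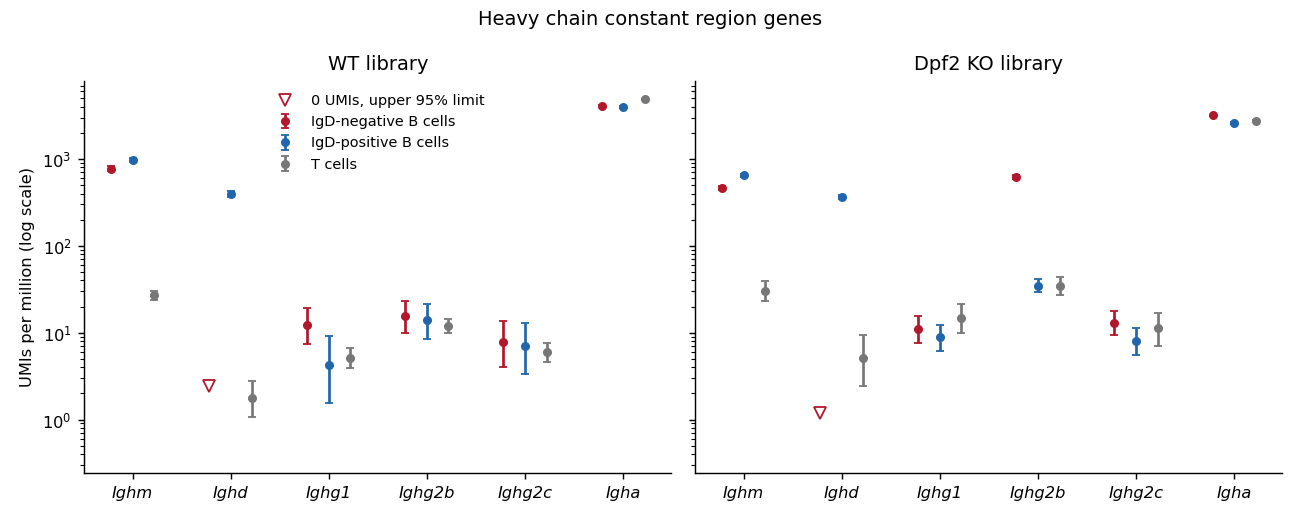
Levels of heavy chain constant genes in CPM on a log axis for kept IgD-negative (red) and IgD-positive (blue) B cells and T cells (grey), with exact Poisson 95% intervals; open triangles mark 0 UMIs of Ighd, which the rule set, at their upper limit. Igha is at 4891 in T cells and 4071 in IgD-negative cells of WT, and at 2772 and 3189 in KO. Ighg2b at 620.4 in KO IgD-negative cells rests on 3 cells.

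Between the libraries, 13 of 6645 genes above the filter (0.196%) were at least 2-fold higher in IgD-negative cells of KO and 25 (0.376%) at least 2-fold lower, with a median log2 ratio of 0.03 over all genes. With every cell of the rule, stromal cells included, these numbers were 20 and 574. Depth and quality differed little: the kept cells had a median of 1.86% mitochondrial UMIs in WT and 2.15% in KO. Ly6d, a surface protein of committed B cells, had the lowest log2 ratio with 10 CPM added (-1.83), at 293 CPM in WT and 75.4 in KO (a plain ratio of 0.257, 0.219 to 0.302). The IgD-positive cells had 351 and 119.8, and T cells 35.9 and 7.14. Cd52, a small surface glycoprotein of lymphocytes, was at 499 and 188 (0.377, 0.338 to 0.421), and Ly6a (Sca-1) at 92.4 and 30.3 (0.328). Sh3bgrl3 was at 214 and 83.5, and the late endosomal adaptor Lamtor2 at 43.6 and 9.79, a plain ratio of 0.224 and a log2 ratio with 10 CPM added of -1.44. Ppdpf, Taf10 (a subunit of TFIID), Basp1, Dtwd2, Ndufa13 (of respiratory complex I), Ppp1ca (a catalytic subunit of protein phosphatase 1) and Edf1 completed the 12 lowest named, with ratios from 0.308 to 0.429.

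The 2 highest named genes were Defa24, at 2.60 in WT and 63.3 in KO, and Defa30, at 1.30 and 25.5. Both are defensins of Paneth cells, and T cells showed them at 3 and 67.8 and at 1.78 and 25.5. Pbx3, a homeodomain partner of HOX proteins, was at 107 in WT and 253 in KO (2.36-fold, 1.99 to 2.81), Dnah17, a dynein heavy chain, at 31.2 and 102 (3.26-fold, 2.40 to 4.51), and the calcium sensor Stim1 at 236 and 480.4 (2.03-fold, 1.81 to 2.29). Nr6a1, an orphan nuclear receptor, was at 109 and 227. With the 10 CPM added, Stim1 had a log2 ratio of 0.99, short of 2-fold, and neither gene is among the 13. The 13 also include Ighg2b with its 3 cells and the unnamed gene models Gm19951 and Gm43336. Apol8, Mis12, Tnfaip2, Cpne9, Abcc5 and Ppfibp2 made up the rest, at 2.35-fold to 6.02-fold. Apol8 and Mis12 rest on 7 and 8 UMIs in WT, with fold intervals of 2.79 to 15.4 and 2.20 to 11.0. Among cells with Xist the log2 ratio fell to 0.02 for Tnfaip2 and 0.13 for Cpne9. With every cell of the rule that of Abcc5 fell to 0.13. All 13 higher and all 25 lower genes had the same direction in IgD-positive cells of the same 2 libraries. There 3 and 2 of them passed 2-fold. Of the 24 named genes, only Dtwd2 had the opposite direction in T cells (log2 ratio 0.15). The share of all genes with the same direction was not computed for IgD-positive or T cells. These cells come from the same 2 libraries, so the counts are not independent results. By the Ighd fit, sampling alone gives 55.4% (WT) and 60.5% (KO) of the kept IgD-negative cells. The libraries also differed by gene span, and 18 of the 25 lower genes and 8 of the 13 higher ones were in the shortest of 4 equal groups of genes (median span 5.84 kb). The median log2 ratio of that group was -0.08 and that of the longest (111 kb) 0.09, and its part in these differences was not tested. The T and NK list summed to 126 CPM in WT and 64.3 in KO, with Cd28 at 40.4 and 18.6, the stromal list to 76.2 (0 of 18 genes at 0) and 21.5 (3 of 18 at 0), and the plasma cell list to 1193 and 1053. Their part in the differences was not tested.

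**Figure D5:**
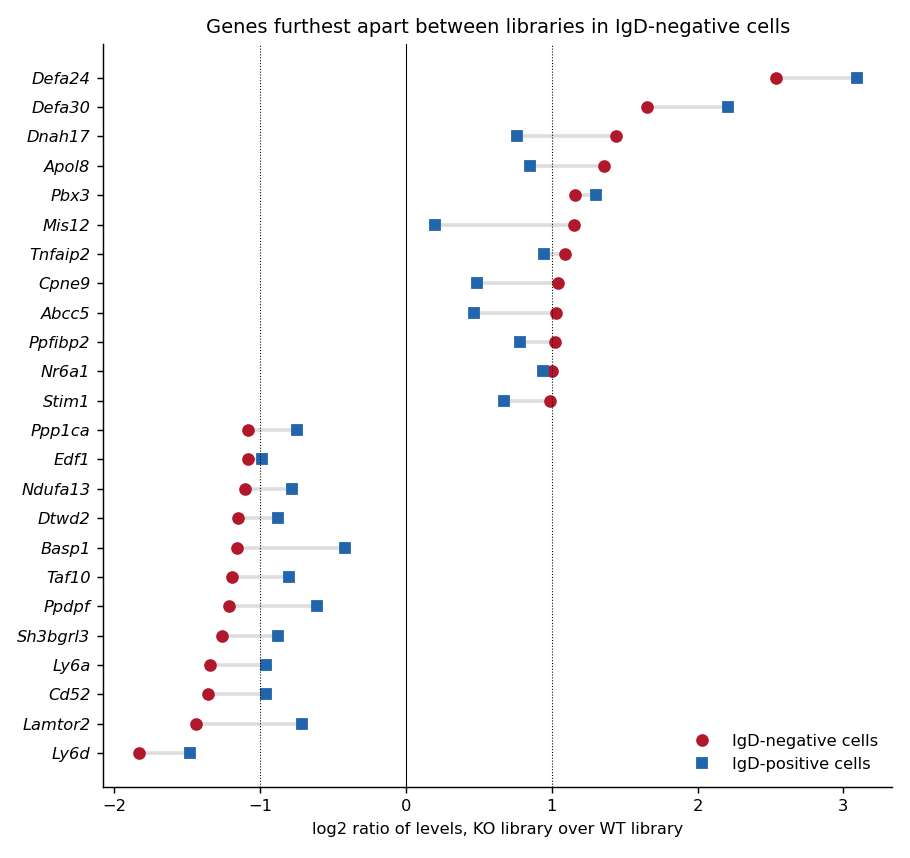
Log2 ratio of levels in the KO over the WT library for the 12 highest and 12 lowest named genes, in IgD-negative cells (red circles) and IgD-positive cells (blue squares), with dotted lines at 2-fold. Every pair of points lies on the same side of 0, with Ly6d at -1.83 and -1.48 and Pbx3 at 1.16 and 1.30.

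By gene list, the heat shock genes were higher in the KO library: 9 of 10 above the filter, with a median log2 ratio of 0.50 in IgD-negative and 0.40 in IgD-positive cells, beside 3552 of 6645 genes over the whole table. Hspa1b, an inducible HSP70, was at 346 CPM in WT and 678 in KO (1.96-fold, 1.78 to 2.16), Hsp90aa1 at 644 and 938, Hsp90ab1 at 1069.6 and 1183, and Hspe1 was the exception at 319.6 and 282. In T cells Hspa1b was at 145 and 606. With every cell of the rule the median of the list was 0.00. Of 12 NF-kB genes 9 were higher, with a median of 0.14. Rel, the c-Rel subunit, was at 2698 and 3231, Nfkb1 at 1020.1 and 1147, and Nfkbia, the inhibitor induced by NF-kB, at 301 and 487 (1.61-fold, 1.45 to 1.80). The immediate early list was split, 7 of 15 higher, with Junb at 1385 and 1919.9 and Jund at 1852 and 1299.

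Of all 6645 genes above the filter, 3093 were lower in KO, which is the background to each count that follows. Lower in KO were 13 of 14 B cell identity genes, with a median of -0.44 in IgD-negative and -0.32 in IgD-positive cells. Among them Swap70 was at 459.6 and 336, and Cd53 at 404 and 338. The 14 leave out Cd79a and Cd79b, which the check used. Cd79a was at 607 and 429 (0.707, 0.649 to 0.769), while Cd79b was at 157 and 179 (1.14, 0.976 to 1.33). Of 10 class II genes 9 were lower, with a median of -0.30. Cd74 was at 4651 and 3504 (0.753, 0.731 to 0.776), H2-Eb1 at 1404 and 1136, H2-Ab1 at 1018 and 817, and H2-Aa was the exception at 1929 and 2026. With every cell of the rule, WT stromal cells included, the class II median was 0.11. All 4 immature and precursor genes were lower, among them Vpreb3, a surrogate light chain relative, at 163 and 78.3, and Cd24a at 203 and 142. Of 9 naive follicular genes lower among 13, Klf2, a factor of quiescence and trafficking, was at 467 and 239 (0.512, 0.461 to 0.568), while Bach2 was at 3044 and 3110.3. Of 6 germinal centre genes 5 were lower, with Bcl6 at 164 and 129 and Basp1 at 97.0 and 37.9, where IgD-positive cells had 56.7 and 39.7. Of 12 memory genes 8 were lower, with Cd44 at 296 and 217, and of 9 homing genes 6, with the chemokine receptor Cxcr4 as an exception at 314 and 472. Ighm was at 776 and 461 (0.594, 0.550 to 0.642).

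Lists tied to irradiation and to the deleted gene's complex had medians near that of all genes in the kept IgD-negative cells. Of 11 p53 targets 4 were higher in KO and 7 lower, with a median of -0.03, against 0.25 in IgD-positive cells and -0.38 with every cell of the rule, and the ubiquitin ligase Mdm2 was at 149 and 178. The antiapoptotic Mcl1 was at 464 and 469, Bcl2 at 146 and 107, and the BCL2 family median was 0.05. Of 21 BAF complex genes 13 were higher and 8 lower, with a median of 0.10. Arid1b was at 661 and 759, and Dpf2 itself had the lowest log2 ratio of the list, -0.45. Of 19 activation genes 11 were higher, with a median of 0.07, Cd86 at 964 and 1027, and Irf4 at 426 and 491.

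Among themselves, the kept IgD-negative cells of both libraries formed 5 clusters, which are described and not compared, since the same genes that defined them differed between the libraries. The first (440 cells) was led by Lsmem1, Dnah17 and Dlg4, and held 48 WT and 392 KO cells. The second (303 cells, 163 and 140) was led by the heat shock genes Hspa1b and Hspa1a with Tsc22d3, Klf2, Egr1, Jun and Fos. The third (293 cells, 140 and 153) was led by Arl15, Tmem108 and Cables1. The fourth (188 cells, 52 and 136) had the highest depth of the 4 large clusters, a median of 4544 UMIs, and was led by Atxn1, Dnase1l3, Ankrd33b and Cd9, with Cd44 at 440 CPM against 192 in the other cells. Mki67 was at 31.9 CPM in this cluster against 2.19 in the other cells, and was found in 5.85% of its cells. The last held 4 cells with Cd80 in all of them, Ccl17 at 375 CPM against 3.94 in the other cells, and Ighm at 75.0 against 569. The check did not use a conventional dendritic cell list, and whether these 4 are B cells was not tested. No cluster had 3 markers of a B cell subset among its leading 100 genes, and none was named.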

How the data were processed

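The deposited files hold raw UMI counts per gene and barcode from 2 droplet 3′ libraries, 1 per genotype. The authors made the counts with Cell Ranger 7.0.0 on GRCm38, per the submitters' processing notes and the file headers; the annotation release and the use of intronic reads are not stated there. Gene positions came from GENCODE vM21. Counts were summed over the cells of a class and divided by the class total. Fold intervals are conditional binomial, level intervals Poisson and share intervals Clopper-Pearson, all at 95%. A gene was called at 2-fold after adding 10 CPM (UMIs per 1000000 UMIs of a class). Doublets were called with Scrublet in scanpy 1.11.5 (6.11% of WT and 5.55% of KO barcodes). Shares of cells with a UMI are given thinned to 2000 UMIs per cell, or marked as before thinning; those of the cell type check and of Ighd are before thinning. The calculation was tested on simulated data. The members, the lists and the tests were chosen with earlier results of these data known. Named genes are the 12 highest and 12 lowest of each comparison, by the smaller of both libraries' log2 ratios for IgD-negative against IgD-positive cells, without rule genes, immunoglobulin segments, sex-linked, haemoglobin, mitochondrial and unnamed genes. List examples are from the 4 most abundant members; Card6, Hspe1, Bcl2 and the genes of the 3 Ighg2b cells were chosen after their values were seen. One gene of the lists is not reported here.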

Additional observations from a re-analysis of the deposited data

Results flagged for a closer look

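Stromal transcripts appeared among cells chosen as B cells, outside the measurement the comparisons use. Over 3 UMIs of the stromal list were found in 20.5% of the IgD-negative cells of the rule in WT and in 2.76% in KO, against 0.917% and 0.177% of IgD-positive cells.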

How the results depend on the processing

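No gene was 2-fold lower in IgD-negative than IgD-positive cells of both libraries under any alternative run, and genes 2-fold higher in both numbered 31 with every cell of the rule and 2 against IgD-positive cells of 3 or more Ighd UMIs. Genes 2-fold higher and lower in KO (13 and 25) were 63 and 92 with a pseudocount of 1, 2 and 2 with 50, 34 and 50 in cells of 4000 or more UMIs, 20 and 574 with every cell of the rule, 39 and 45 among cells with Xist and no Y-linked UMI, and 24 and 44 among cells of the opposite kind; the cause was not tested. The share of IgD-negative cells in WT (59.8%) was 53.8% after the check, 54.1% after the looser check, 53.1% among cells with Xist, 65.9% among those with Y-linked transcripts, and 91.3% when IgD-positive meant 3 or more Ighd UMIs. In KO (55.5%) it was 45.2% at 4000 or more UMIs, 50% after the check and 89.5% with 3 or more Ighd UMIs. Of 1344 list medians recomputed, 262 moved by over 0.1 (log2), and of 1188 values of named genes 177 left the counting interval. With the looser check, 15 genes were higher and 18 lower in KO, the share of IgD-negative cells in KO was 54.5%, and the T and NK median between libraries was -0.77 in place of -0.51. With every cell of the rule the naive follicular and homing medians between libraries were 0.03 and 0.03 in place of -0.16 and -0.19. The heat shock median between libraries was 0.50 after the check and 0.00 with every cell of the rule. The looser check and the omission of the 3 Ighg2b cells were chosen after seeing the data. No paired analysis was possible because each genotype is 1 library with no replicate number, and for the same reason no replicate could be left out.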
